A study of Mus musculus with 5 samples.

Results

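The cytosolic ribosomal protein genes encode the protein part of the ribosome, and they were followed here through 10 classes of mouse blood cells in 5 single-cell RNA libraries. Members were taken by symbol: Rpl or Rps followed by a digit, plus Rplp0, Rplp1, Rplp2 and Rpsa, leaving out pseudogene symbols and the Rps6k kinases. This rule took 87 of the 33696 genes listed in each matrix. 85 of them are ribosomal proteins. The other 2 are Rps19bp1, which encodes a protein that binds Rps19, and Rps23rg1, a retroposed relative of Rps23.

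A ribosome is built from a small subunit, which reads the mRNA, and a large subunit, which joins the amino acids and carries a stalk that recruits elongation factors. Its proteins are made in near equal numbers, and many of their mRNAs begin with a run of pyrimidines (the TOP motif) through which growth signals set their translation. Resting naive lymphocytes are small cells that keep a large part of their mRNA for ribosomal proteins, whereas mature neutrophils, platelets and late red cells make few new ribosomes or none.

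Blood mononuclear cells came from C57BL/6N mice in a diet and drug model of HFpEF, the form of heart failure in which the ejection fraction is preserved. In 2 libraries the mice had regular chow. In 2 libraries they had a high-fat diet (HFD) with L-NAME, an inhibitor of the endothelial nitric oxide synthase eNOS, for 15 weeks. In 1 library they had the same regimen with nitro-oleic acid (NO2-OA), an electrophilic fatty acid, in the last 4 weeks. Neither the age nor the sex of the mice is among the labels used here, nor how many animals went into a library, so p-values measure only the spread between these samples. All cells had been separated on a density gradient, treated to lyse red cells, frozen and thawed.

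The libraries held 8488 to 17997 cell barcodes and 71216133 to 122022000 unique molecular identifiers (UMIs, each standing for 1 captured mRNA molecule), with a median of 5741 to 7043.5 UMIs per barcode. After filters on genes, mitochondrial RNA and doublets, 7165 to 14771 cells per library remained. Any pair of libraries shared 28 to 77 barcode sequences, at most 0.613% of the smaller library. The deposited file names put the libraries numbered 1 in one set and those numbered 2 in another, so the replicate number and the set cannot be told apart, and values within each number stand beside the pooled ones. Cells were clustered without the members and named from marker genes. B-like cells carried 7387 to 8067 counts per 1000000 UMIs (CPM) of B-cell markers, against 24.7 to 44.2 in CD8 T-like cells, and their neutrophil markers were at 14.6 to 41.9 CPM. Macrophage-like cells were found in the libraries numbered 2 alone, and chow 2 held 10 neutrophil-like cells, too few to be used. Between 4.66% and 9.41% of kept cells stayed unnamed.

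Over all kept cells the members supplied 13.1% of UMIs in chow 1, 20.2% in chow 2, 16.4% in HFD + L-NAME 1, 14.6% in HFD + L-NAME 2 and 15.9% in HFD + L-NAME + NO2-OA 1. The lowest and the highest of these are both chow libraries. The gene with the highest mean level was Rps24, a small-subunit protein, at 4449 CPM in chow 1, 6327 in chow 2, 5307 and 4140 under HFD + L-NAME 1 and 2 and 5061 with NO2-OA. It was followed by Rps29 (mean 3902 CPM), the stalk protein gene Rplp1 (3841 CPM), Rps27 (3777 CPM) and Rpl23 (3445 CPM). UMIs are taken at the 3′ end of each mRNA and carry no correction for length. At the other end stood Rps23rg1 with 21 UMIs in all 5 libraries, Rpl39l with 417, Rpl3l with 1013 and Rps19bp1 with 5492 (mean 14.4 CPM), and then Rpl7l1 at a mean of 51.0 CPM. Rpl10l, a retroposed copy of Rpl10, had 0 UMIs, which allows up to 3 counts. With all genes eligible, 0 members were among the 2000 most variable genes across cells.

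The share of a cell class's UMIs that came from ribosomal protein genes followed much the same order in each library. T-like cells had the highest shares. In CD8 T-like cells it was 18.7% in chow 1, 28.8% in chow 2, 25.4% in HFD + L-NAME 1, 24.1% in HFD + L-NAME 2 and 21.0% in the NO2-OA library. In CD4 T-like cells it was 16.0%, 26.7%, 23.6%, 23.4% and 19.2% in the same order of libraries, below CD8 T-like cells in 5 of 5 libraries. B-like cells followed at 11.2% to 18.5%, macrophage-like cells at 16.3% and 15.2%, classical monocyte-like cells at 12.8% to 17.0%, NK-like cells at 9.42% to 12.8% and non-classical monocyte-like cells at 8.53% to 10.5%. B-like, macrophage-like and classical monocyte-like cells overlapped, and classical monocyte-like cells were above B-like cells in chow 1 (12.8% against 11.2%) and with NO2-OA (15.4% against 15.0%).

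The classes with the fewest ribosomal protein UMIs were those of cells at the end of their life course. Neutrophil-like cells stood at 2.41% in chow 1, 2.57% and 2.67% under HFD + L-NAME 1 and 2 and 2.36% with NO2-OA. Platelet-like droplets stood at 1.51%, 3.03%, 1.13%, 1.60% and 2.11% in the 5 libraries. Erythroid-like cells ranged from 1.41% to 6.66%, but 60.9% to 88.6% of their UMIs were haemoglobin. The highest value was in the NO2-OA library, where 112 of 483 erythroid-like cells lay in a second cluster at 13.6%, against 4.00% in the main one. Of the barcodes in that second cluster over all libraries, 43.14% had been scored as doublets and left out. How far mixed droplets remained in it was not tested. With mitochondrial, haemoglobin and immunoglobulin genes taken out of the total, the erythroid-like share was 12.1% to 17.9%, while the neutrophil-like share was 2.42% to 2.69%. Platelet-like droplets also differed in depth, with a median of 5241 and 4325 UMIs in chow 1 and HFD + L-NAME 1 against 866, 919 and 1192 in chow 2, HFD + L-NAME 2 and NO2-OA. Cells of 1 library share their handling, so no test was made between classes.

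**Figure D1:**
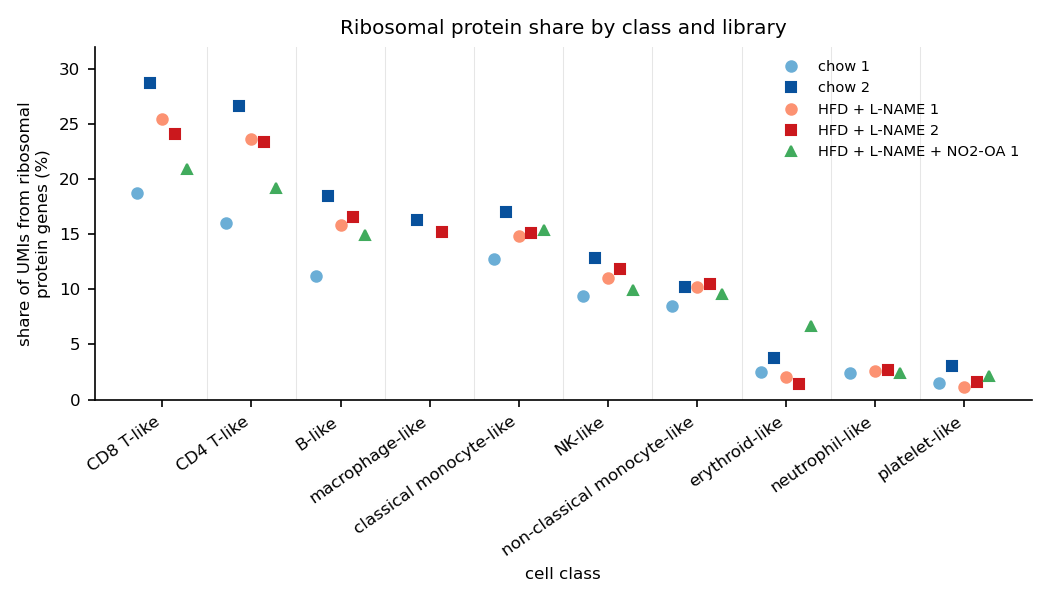
Share of UMIs from ribosomal protein genes (%, vertical axis) in each cell class, 1 point per library. CD8 T-like cells lie between 18.7% and 28.8% and neutrophil-like cells between 2.36% and 2.67%, and chow 1 is the lowest point in the B-like, T-like, NK-like and monocyte-like classes.

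The HFD and L-NAME regimen was set against chow to ask whether this share moved with the disease model. In B-like cells the mean was 14.8% ± 5.14 (SD, n = 2) in chow and 16.2% ± 0.550 (SD, n = 2) under the regimen, a difference of 1.39 percentage points with overlapping groups (exact permutation test, two-sided, p = 1, where 0.333 is the smallest p that 2 libraries against 2 can give). The clusters that make up this class were not equally filled: one led by Sox5, with high shares in each library, held 487 of 2836 B-like cells in HFD + L-NAME 2 against 217 of 5230 in HFD + L-NAME 1, 171 of 5494 in chow 1 and 270 of 5055 in chow 2. In the largest B-like cluster the share was 11.6% and 18.4% in chow 1 and 2 and 16.4% and 15.6% under HFD + L-NAME 1 and 2, again with overlap. Within the libraries numbered 1 the regimen was higher by 4.63 points, and within those numbered 2 the difference was -1.86 points. The same change of sign was seen in CD4 T-like cells (7.60 and -3.30), CD8 T-like cells (6.71 and -4.63), NK-like cells (1.59 and -1.01) and classical monocyte-like cells (2.07 and -1.88), with an exact permutation p of 1 in each. The 2 chow libraries differed by more than the groups did: the share in chow 2 was 1.65 times that in chow 1 in B-like cells, 1.66 times in CD4 T-like, 1.54 times in CD8 T-like, 1.36 times in NK-like and 1.33 times in classical monocyte-like cells.

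In non-classical monocyte-like cells, which patrol vessel walls, the groups did not overlap. The share was 8.53% in chow 1, 10.19% in chow 2, 10.20% in HFD + L-NAME 1, 10.5% in HFD + L-NAME 2 and 9.55% in the NO2-OA library. The regimen was higher by 1.00 percentage points, by 1.67 within the libraries numbered 1 and by 0.337 within those numbered 2 (exact permutation test, two-sided, p = 0.333). The share in the NO2-OA library lay below HFD + L-NAME 1 by less than 1 point here and in B-like cells (differences of -0.656 and -0.854), and by more in NK-like (-1.07), CD4 T-like (-4.45) and CD8 T-like cells (-4.45). It lay above HFD + L-NAME 1 in classical monocyte-like cells (0.577), platelet-like droplets (0.978) and erythroid-like cells (4.63). In the main erythroid-like cluster alone the share was 4.00% in the NO2-OA library and 1.65% in HFD + L-NAME 1. With 1 NO2-OA library, these differences have no replicate check.

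Beyond the total, the make-up of the ribosomal protein pool, meaning each gene's part of the members' UMIs, was compared between each class and all kept cells of the same library (79 members with at least 0.1% of the pool; all kept cells include the class itself). In B-like cells the pool matched that of all cells closely, with a spread (SD over genes of the median log2 ratio) of 0.09. The spread was 0.13 in CD8 T-like, 0.16 in CD4 T-like, 0.19 in erythroid-like, 0.22 in NK-like and 0.30 in non-classical monocyte-like cells, then 0.31 in macrophage-like and 0.36 in classical monocyte-like cells. It was 0.64 in platelet-like droplets and 0.72 in neutrophil-like cells. Member UMIs per library were 4660 to 69625 in platelet-like droplets and 31935 to 98788 in neutrophil-like cells, beside 9892 to 246168 in erythroid-like cells. The part of low counts in the spread was not tested.

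Neutrophil-like cells had the pool least like the others, with 15 of 79 members more than 1 log2 unit away, 3 above and 12 below. Rps9, a small-subunit protein that helps keep reading accurate, made up 6.37% of the pool in chow 1, 6.94% and 6.08% under HFD + L-NAME 1 and 2 and 6.50% with NO2-OA, a median log2 ratio of 2.00 to all cells. In B-like cells Rps9 made up 1.44% to 1.78%, in CD4 T-like cells 1.19% to 1.43% and in classical monocyte-like cells 2.16% to 2.63%, so the neutrophil-like values did not overlap any of these. Rpl37 (log2 1.45, 2.76% to 3.86% of the pool) and Rps27a (log2 1.44, 3.62% to 4.58%), which is made as a fusion with ubiquitin, were the next highest. The lowest were Rpl12 (log2 -1.88), which sits at the base of the stalk, Rpl10a (-1.68) and Rps20 (-1.66). Some neutrophil-like cells formed a cluster led by Camp, a granule gene of immature neutrophils. Without that cluster Rps9 was at 6.33%, 7.27%, 6.43% and 7.30% in the 4 libraries. Summed B-cell markers in neutrophil-like cells were at 63.1 to 395 CPM, against 7387 to 8067 in B-like cells.

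The part held by Rpl12 stepped down across the classes. It held 2.08% to 2.20% of the pool in CD4 T-like cells, 1.86% to 1.98% in CD8 T-like, 1.41% to 1.61% in B-like and 1.10% to 1.22% in NK-like cells. Macrophage-like cells stood at 1.15% in both libraries. Non-classical and classical monocyte-like cells stood at 0.640% to 0.737% and 0.627% to 0.714%, and these ranges overlap. In chow 2 and HFD + L-NAME 2, the libraries with macrophage-like cells, NK-like cells were at 1.12% and 1.13%, close to the macrophage-like value. Neutrophil-like cells were at 0.362% to 0.662%.

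In classical monocyte-like cells the genes farthest above all cells were Rpl36al, with a median log2 ratio of 1.01, Rpl10, one of the last proteins to join the large subunit, at 0.97 and Rpl7a at 0.73, while Rpl12 (-1.24), Rps27 (-0.72) and Rps20 (-0.63) were low. Non-classical monocyte-like cells shared the low Rpl12 (-1.23) and Rps20 (-0.69), followed by Rplp1 (-0.56), but Rps27a (0.61) and Rps25 (0.54) were among their highest genes. Macrophage-like cells had low Rps26 (-1.26), at 0.449% and 0.381% of the pool, against 0.908% to 1.31% in B-like, T-like and classical monocyte-like cells. NK-like cells had low Rps19 (-0.97), the gene most often mutated in Diamond-Blackfan anaemia, at 0.807% to 0.899% of the pool against 1.57% to 1.84% in B-like and T-like cells.

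Platelet-like droplets were led by Rpl41, the smallest ribosomal protein, at 8.14% of the pool in chow 1, 4.87% in chow 2, 11.02% and 9.10% under HFD + L-NAME 1 and 2 and 8.11% with NO2-OA. In all of the B-like, T-like and monocyte-like classes Rpl41 held 0.799% to 1.64%. The stalk genes Rplp0 (median log2 ratio 1.73) and Rplp1 (1.54) followed, and Rpl22l1 (-0.94) and Rpl5 (-0.91) were among the lowest. Chow 2 was the least extreme library for Rpl41, Rplp0 and Rplp1. Its platelet-like droplets also had the most T-cell marker RNA, with 110 CPM of CD4 T markers against 7.20 to 44.6 in the other libraries, and the part this had in the values was not tested. Small-subunit UMIs were 0.609, 0.797, 0.530, 0.603 and 0.632 of large-subunit UMIs in platelet-like droplets, below the 0.826 to 0.959 of the lymphocyte-like and monocyte-like classes.

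**Figure D2:**
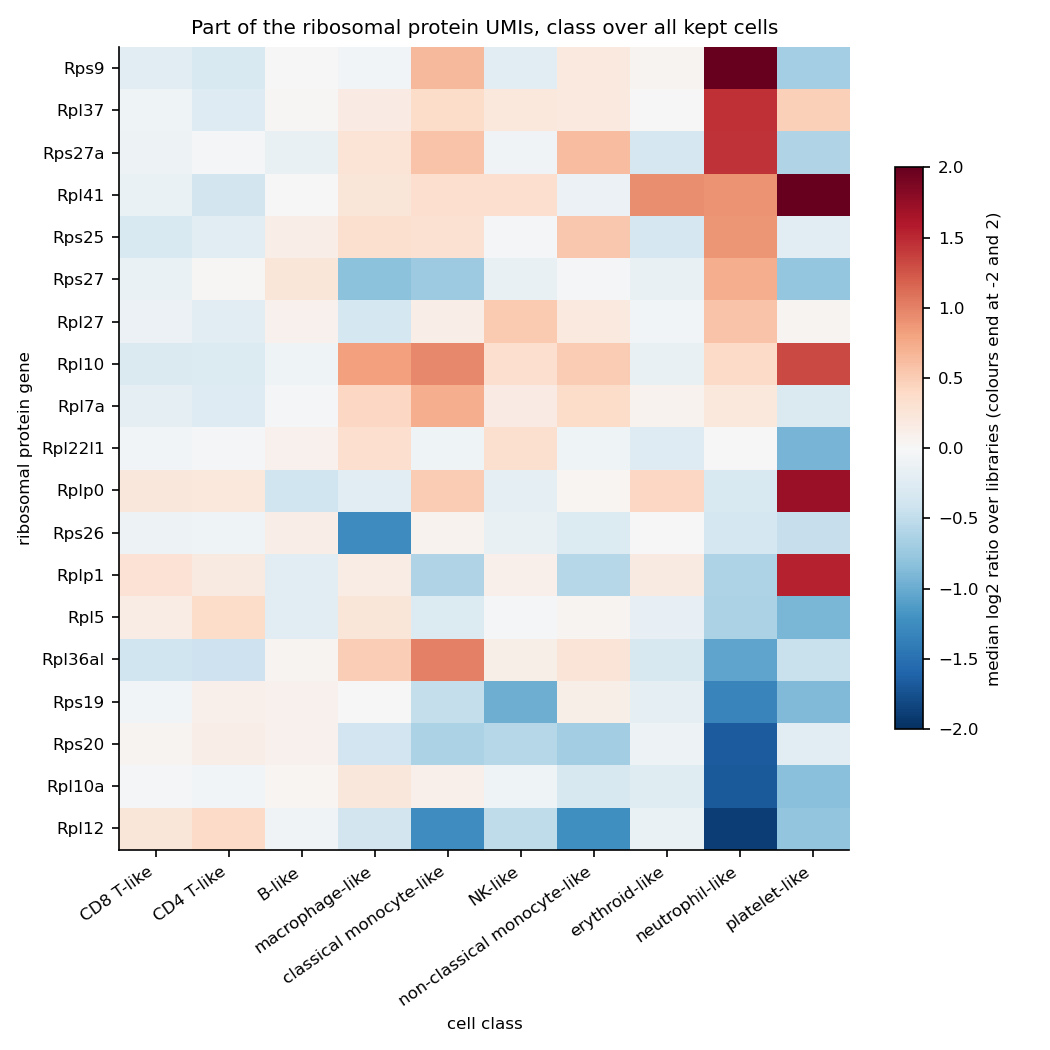
Median over libraries of the log2 ratio between a gene's part of the ribosomal protein UMIs in a class (columns) and in all kept cells, for genes (rows) that the text names. Red is above and blue below all cells, colours end at 2 and -2, and the neutrophil-like and platelet-like columns hold the strongest colours (Rps9 at 2.00, Rpl41 at 2.82).

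B-like and T-like cells differed from each other by less. Their farthest genes were Rps27 (log2 0.25) and Rplp0 (-0.39) in B-like cells, Rpl12 (0.38), Rpl5 (0.37) and Rpl36al (-0.42) in CD4 T-like cells, and Rplp1 (0.29), Rpl12 (0.24) and Rpl36al (-0.40) in CD8 T-like cells. Rpl5 binds the 5S ribosomal RNA and can also bind Mdm2, the regulator of p53. The stalk partner genes did not share 1 pattern: Rplp0 held 0.749% to 1.01% of the pool in B-like cells and 1.13% to 1.25% in CD4 T-like cells, without overlap, while Rplp2 held 1.44% to 1.80% and 1.58% to 1.93%, with overlap. Rpsa, the laminin-receptor protein of the small subunit, lay at 1.22% to 1.32% in B-like and 1.45% to 1.54% in CD8 T-like cells.

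Several members have a close paralog, and which copy supplied the UMIs depended on the class. Rpl36a lies on the X chromosome, and Rpl36al is its autosomal copy. The start regions of both, with those of Rps27 and its copy Rps27rt, are shown because in 1 pair the copies differ at their start and in the other they are alike. Each line gives 10 bases before and 20 from the RefSeq transcription start, from the GRCm38.p6 build, with the longest run of pyrimidines in capitals.
Rpl36a, chrX:134585644-134585673, plus strand: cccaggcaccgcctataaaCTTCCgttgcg
Rpl36al, chr12:69184048-69184077, minus strand: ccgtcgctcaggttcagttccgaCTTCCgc
Rps27, chr3:90213629-90213658, minus strand: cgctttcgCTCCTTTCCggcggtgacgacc
Rps27rt, chr9:114982720-114982749, minus strand: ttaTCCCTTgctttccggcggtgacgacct
The longest stretch that both windows hold was 7 bases for Rpl36a and Rpl36al and 19 of 30 bases for Rps27 and Rps27rt.

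In classical monocyte-like cells Rpl36al supplied more UMIs than Rpl36a. Its part of the pair was 55.3% in chow 1, 54.7% in chow 2, 55.4% and 52.9% under HFD + L-NAME 1 and 2 and 53.2% with NO2-OA, with exact binomial 95% intervals of 53.8% to 56.9% for chow 1 and 50.9% to 54.9% for HFD + L-NAME 2. Non-classical monocyte-like cells stood at 41.3% to 42.9%. B-like cells were at 32.2%, 25.5%, 33.0%, 31.7% and 33.1%, CD4 T-like cells at 22.6%, 18.8%, 23.3%, 22.7% and 22.8%, and CD8 T-like cells at 17.8% to 23.6%. Chow 2 was the lowest library in B-like and T-like cells, and the classes kept their order in it. The intervals here cover counting error only.

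Rps27l, a paralog of Rps27 known as a p53 target, supplied 10.4%, 6.65%, 12.9%, 7.59% and 13.2% of its pair with Rps27 in classical monocyte-like cells, and 8.39% and 10.4% in macrophage-like cells. In CD4 T-like cells it supplied 0.490% to 1.10%. In classical monocyte-like cells the libraries numbered 2 (6.65% and 7.59%) were below those numbered 1 (10.4% to 13.2%) in both groups; the chow and HFD + L-NAME values overlapped. Rps27rt, the near-identical retroposed copy of Rps27, had a part that did not order the classes in this way. Its part of the pair was 2.63% in chow 1, 1.62% in chow 2, 2.22% and 1.80% under HFD + L-NAME 1 and 2 and 1.96% with NO2-OA in B-like cells, and 2.63%, 1.50%, 2.28%, 1.74% and 1.80% in CD4 T-like cells, with the libraries numbered 2 again below those numbered 1 of the chow and HFD + L-NAME groups. Reads of such a copy can be split from Rps27 only where the sequences differ, and its counts are uncertain.

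Rpl22l1, the paralog of Rpl22, gave 40.6% to 48.5% of its pair in neutrophil-like cells and 23.9% to 30.0% in classical monocyte-like cells, with B-like cells at 30.2% to 33.7%. Rpl7l1, a paralog of Rpl7 with a part in ribosome assembly, gave 4.72% to 5.75% of its pair in B-like cells and 1.77% to 2.74% in CD8 T-like cells. Rpl39l, best known from male germ cells, gave at most 0.294% of its pair in classical monocyte-like cells and at most 0.0704% in CD8 T-like cells.

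Rpl3l, known as the muscle form of Rpl3, had its highest parts of the pair in neutrophil-like and non-classical monocyte-like cells. It gave 20.9%, 18.2%, 19.2% and 15.1% of its pair in neutrophil-like cells of chow 1, HFD + L-NAME 1, HFD + L-NAME 2 and NO2-OA, on 19, 28, 47 and 29 UMIs. Rpl3 itself had 72, 126, 198 and 163 UMIs there. In non-classical monocyte-like cells Rpl3l gave 2.83%, 7.67%, 4.21%, 6.98% and 4.96%, on 106, 304, 85, 126 and 80 UMIs. As CPM, Rpl3l was lower in neutrophil-like cells, at 14.33, 18.45, 12.68 and 10.95 in the same libraries. Non-classical monocyte-like cells had 17.72, 26.74, 47.58 and 29.27 CPM in those libraries. In B-like and T-like cells Rpl3l gave at most 0.161% of the pair, and macrophage-like cells had 1 and 2 UMIs (0.0258% and 0.019% of the pair). Msrb1, a selenoprotein gene that lies next to Rpl3l on the same strand, was high in the same classes: 1277 to 1729 CPM in neutrophil-like, 382 to 547 in non-classical monocyte-like, 479 to 654 in classical monocyte-like and 8.88 to 15.0 in B-like cells. In classical monocyte-like cells Rpl3l gave 0.155% to 0.308% of its pair. The part of Msrb1 in the Rpl3l counts was not tested.

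**Figure D3:**
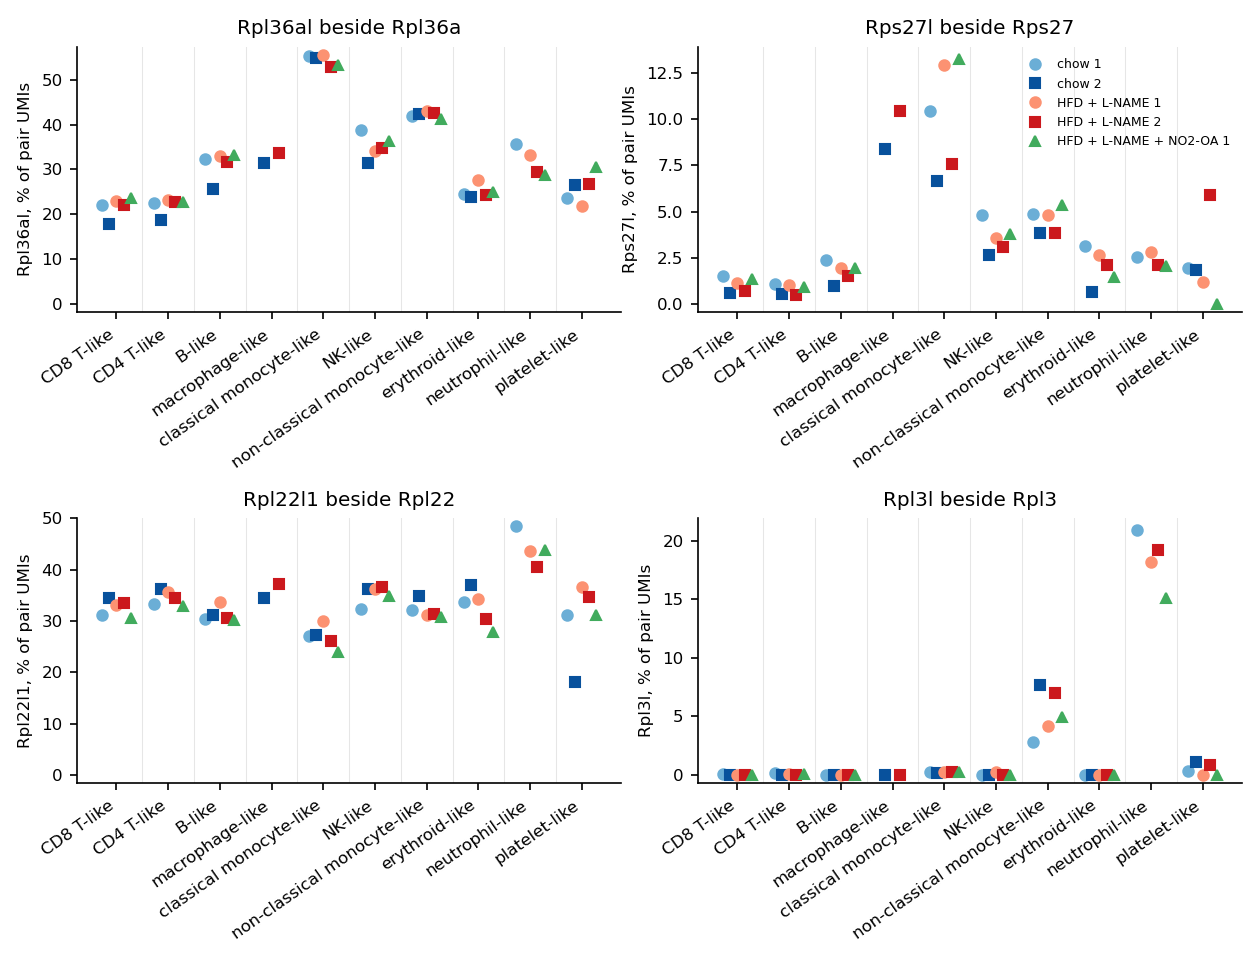
Part of a paralog pair's UMIs (%, vertical axis) that came from the second copy, by cell class, 1 point per library. Rpl36al is above 52% in classical monocyte-like cells and below 34% in B-like and T-like cells, and Rps27l in classical monocyte-like cells lies at 6.65% and 7.59% in the libraries numbered 2 and from 10.4% to 13.2% in those numbered 1.

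Single genes were then tested under the regimen with edgeR's quasi-likelihood test on summed UMIs per library, over all cells and in the 6 classes that had 50 cells or more in each of the 5 libraries. In summed counts, fewer cells of a type and less RNA per cell cannot be told apart. None of the 82 to 85 members tested passed an adjusted p under 0.05, giving 0 calls in each class, and DESeq2 also gave 0 in each. Of all genes tested, edgeR called 0% in B-like, CD4 T-like, classical and non-classical monocyte-like cells and over all cells, 0.0131% in CD8 T-like cells and 0.044% in platelet-like droplets. At an unadjusted p under 0.05 there was 1 member in classical monocyte-like cells, 1 in non-classical monocyte-like cells and 6 in platelet-like droplets, and 0 in the others. Of all genes tested in these classes, 436 of 11640, 311 of 11120 and 409 of 6825 had such a p, in the same order.

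The fitted changes nonetheless leaned 1 way within a class. The log2 fold change was above 0 for 78 of 84 members in B-like cells (median 0.16), 80 of 85 in CD4 T-like (0.21), 74 of 85 in CD8 T-like (0.10), 63 of 85 in classical monocyte-like (0.05) and 81 of 84 in non-classical monocyte-like cells (0.15). In platelet-like droplets it was above 0 for 8 of 82 (median -0.44). The median over all genes tested ran from -0.01 to 0.02 over these classes. Of all genes tested, 8098 of 16777 were above 0 in B-like, 6709 of 13675 in CD4 T-like and 7538 of 15223 in CD8 T-like cells. It was 5729 of 11640 in classical and 5465 of 11120 in non-classical monocyte-like cells and 3524 of 6825 in platelet-like droplets. Over all kept cells 47 of 85 members were above 0 (median 0.01), beside 10171 of 20506 genes. The direction rested on which chow library was used: without chow 1 the median was -0.13 in B-like, -0.11 in CD4 T-like, -0.18 in CD8 T-like and -0.12 in classical monocyte-like cells, and without chow 2 it was 0.56, 0.69, 0.47 and 0.25.

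Rpl10 had the smallest p among higher members in B-like, CD4 T-like, non-classical monocyte-like and platelet-like classes. In non-classical monocyte-like cells it was at 593 CPM in chow 1, 806 in chow 2, 897 in HFD + L-NAME 1, 1061 in HFD + L-NAME 2 and 836 in the NO2-OA library, so both regimen libraries were above both chow libraries. The log2 fold change was 0.49 ± 0.21 (SE; edgeR adjusted p = 1.00). In CD4 T-like cells Rpl10 was at 688, 1078, 1236, 1289 and 971 CPM, with a log2 fold change of 0.57 ± 0.33 (edgeR adjusted p = 1.00). Without chow 2 this value was 1.0 in CD4 T-like cells. In B-like cells Rpl10 was at 561, 912, 906, 1077 and 873 CPM, where chow 2 and HFD + L-NAME 1 were close (log2 0.44 ± 0.31).

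Rpl39l gave the smallest p in classical monocyte-like cells, at log2 2.74 ± 1.14 (edgeR adjusted p = 1.00), on 0 and 4 UMIs in the chow libraries, 8 and 12 under HFD + L-NAME 1 and 2 and 42 with NO2-OA. It also led among higher members in CD8 T-like cells (log2 0.87) on 43, 9, 20, 13 and 20 UMIs in the 5 libraries. Over all cells the leading members were Rps27l (log2 0.45 ± 0.23, at 59.3, 81.3, 86.1 and 95.7 CPM in chow 1, chow 2, HFD + L-NAME 1 and 2) and, lower, Rplp2 (-0.20). The lower members with the smallest p were Rps29 in B-like (-0.14) and CD8 T-like cells (-0.20), Rpl3l in CD4 T-like (-0.15), Rps27rt in classical monocyte-like (-0.15) and Rpl38 in non-classical monocyte-like cells (-0.05), each smaller than its standard error.

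In platelet-like droplets Rpl12 was at 165 CPM in chow 1, 463 in chow 2, 87.2 in HFD + L-NAME 1 and 127 in HFD + L-NAME 2, with both regimen libraries below both chow libraries. Its log2 fold change was -1.13 ± 0.41 (edgeR adjusted p = 0.580). Without chow 1 it was -1.5, and with 1 library left out it ran from -1.5 to -0.64. Chow 2, the highest library, also had the most T-cell marker RNA in these droplets, as given above. Rpl12 was the gene farthest above all cells in the pool of CD4 T-like cells. The part of this in the Rpl12 values was not tested. Rpl10 went the other way in platelet-like droplets, at log2 0.42 ± 0.39.

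**Figure D4:**
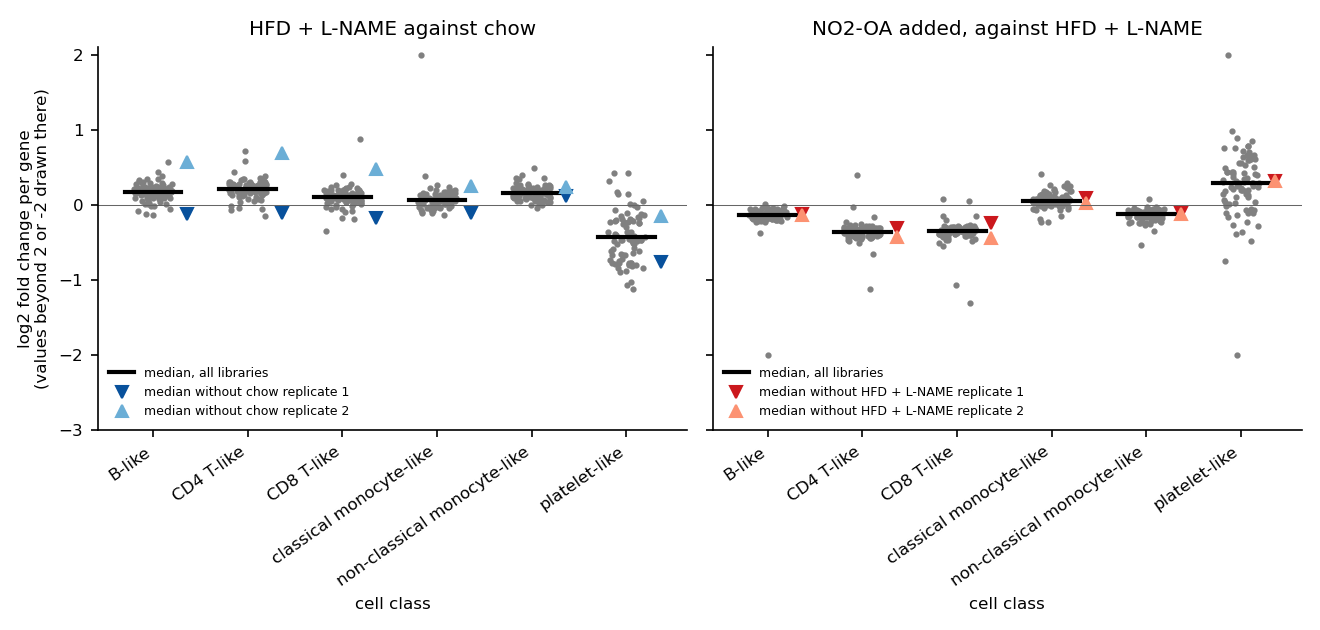
Log2 fold change of each ribosomal protein gene by class (grey points), with the median (black bar), for the regimen against chow (left) and for NO2-OA added against the regimen alone (right); triangles give the median with 1 library left out. On the left the triangles lie on both sides of 0 in the B-like, T-like and classical monocyte-like classes, from -0.18 to 0.69.

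Since the total share differed so much between the chow libraries, the same genes were also compared within the pool, as UMIs over the members' UMIs. Both regimen libraries lay above both chow libraries for 17 of 84 members in B-like cells, where 3.18% of all genes scaled this way did so, and both lay below for 3, against 13.5%. The counts above and below were 22 and 9 of 85 in CD4 T-like cells (all genes 2.93% and 18.4%), 18 and 6 of 85 in CD8 T-like (5.36% and 10.6%), 19 and 4 of 85 in classical monocyte-like (10% and 15.5%), 17 and 6 of 84 in non-classical monocyte-like (6.22% and 27.5%), 12 and 21 of 82 in platelet-like droplets (30.7% and 12.6%) and 22 and 4 of 85 over all kept cells (9.19% and 8.32%). This scaling carries the libraries' difference in total share into every gene that is not a member, so the percentages of all genes are no like background, and nothing is read from the members' counts beside them. With edgeR scaled to the members' UMIs, 0 members passed an adjusted p under 0.05 in any of these classes, and the smallest adjusted p was 0.739.

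Rpl10 and Rpl15, both of the large subunit, were the members whose part of the pool was higher under the regimen without overlap in 6 of 6 classes. Rpl10 made up 0.502% and 0.494% of the pool in B-like cells of chow 1 and 2, 0.573% and 0.649% under HFD + L-NAME 1 and 2 and 0.584% with NO2-OA. In CD8 T-like cells it made up 0.435%, 0.411%, 0.503%, 0.538% and 0.502%, and in classical monocyte-like cells 1.01%, 1.08%, 1.19%, 1.23% and 1.19%. The fitted log2 difference ran from 0.22 to 0.73 over the classes. In these 3 classes the NO2-OA library was above both chow libraries as well.

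Rpl15 made up 0.573% and 0.650% of the B-like pool in the chow libraries, 0.731% and 0.732% under HFD + L-NAME 1 and 2 and 0.716% with NO2-OA, with log2 differences of 0.09 to 0.26 over the classes. Its lowest value was in chow 1 in each of the 6 classes. Rpl26, Rpl28 and Rpl7a were higher without overlap in 5 of 6 classes. Rps3, a small-subunit protein at the mRNA entry channel, was higher in 5 and lower in platelet-like droplets. Among lower members, Rpl36a and Rpl3 were below chow in 4 classes each (Rpl36a at 0.637% and 0.680% of the B-like pool in chow, 0.600% and 0.625% under the regimen), with Rpl3 at log2 -0.50 to -0.03 over the classes. Rpl37a, Rplp2 and Rpsa were below chow in 3 classes each. For 43 members no class showed both regimen libraries above both chow libraries. The classes come from the same 5 libraries and are not separate tests. The number of classes without overlap was not counted over all genes. The members named here are therefore a description of these libraries, not a result about ribosomal proteins.

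The start regions of these 6 genes are shown because their part of the pool was above chow without overlap in 5 or 6 classes, beside Rps9 and Rpl12, which set the classes apart; the windows and capitals are as above.
Rpl10, chrX:74270806-74270835, plus strand: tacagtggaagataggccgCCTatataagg
Rpl15, chr14:18270967-18270996, minus strand: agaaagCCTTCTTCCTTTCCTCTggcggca
Rpl28, chr7:4792955-4792984, plus strand: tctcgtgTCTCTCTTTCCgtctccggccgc
Rpl7a, chr2:26910797-26910826, plus strand: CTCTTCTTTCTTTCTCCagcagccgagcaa
Rpl26, chr11:68901556-68901585, plus strand: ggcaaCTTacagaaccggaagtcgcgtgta
Rps3, chr7:99483690-99483719, minus strand: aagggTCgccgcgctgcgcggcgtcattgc
Rps9, chr7:3704031-3704060, plus strand: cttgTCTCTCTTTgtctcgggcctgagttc
Rpl12, chr2:32961702-32961731, plus strand: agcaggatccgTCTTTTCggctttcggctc
The run was 17 bases in Rpl15 and Rpl7a, 11 in Rpl28, 9 in Rps9 and 7 in Rpl12, and 3 in Rpl10 and Rpl26 and 2 in Rps3, so the 6 genes did not share a long run at these annotated starts. 67 of the 87 members had a start in the RefSeq table.

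Over all matched members, a pyrimidine run of at least 8 bases was found within 20 bases of the start in 31 of 67 (46.3%), against 18.3% of 26958 other genes, and the median longest run was 7 against 5 bases. A C followed by at least 4 pyrimidines within 2 bases of the start was found in 23 members (34.3%), against 10.5%. In the 300 bases from 250 before to 50 after the start, both strands, CCGGAAG, a core of ETS and GABP sites, was found in 26 (38.8%) against 9.86%. AAGATGGC, a core of YY1 sites, was found in 6 (8.96%) against 3.18%, CTCTTTCC in 10 (14.9%) against 3.54%, GGGCGG, the GC box, in 41 (61.2%) against 38.1% and TATAAA in 7 (10.4%) against 15.7%. These are matches of letters in a window.

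The balance between the subunits was compared in the same way. In CD8 T-like cells, small-subunit UMIs were 0.941 of large-subunit UMIs in both chow libraries, 0.919 and 0.913 under HFD + L-NAME 1 and 2 and 0.917 with NO2-OA. In CD4 T-like cells the values were 0.959 and 0.959, 0.943 and 0.943, and 0.949, and in B-like cells 0.939 and 0.937, 0.922 and 0.911, and 0.923. Both regimen libraries were below both chow libraries in these 3 classes (exact permutation test, two-sided, p = 0.333 in each, n = 2 and 2), within each replicate number too (-0.0173 and -0.0255 in B-like cells). In NK-like and both monocyte-like classes the groups overlapped (exact permutation p = 1), with differences of -0.00514, -0.00646 and -0.00551. In erythroid-like cells the ratio was 0.901 and 0.879 in chow and 0.839 and 0.831 under the regimen, with 0.917 under NO2-OA. Platelet-like droplets, whose values are given above, ranged most, and in both of these classes the regimen libraries were lower without overlap (differences of -0.0553 and -0.137, exact permutation p = 0.333). In platelet-like droplets chow 1 (0.609) and HFD + L-NAME 2 (0.603) were close, and chow 2 stood apart at 0.797. The part of the T-cell RNA in the chow 2 droplets was not tested. Neutrophil-like cells ranged from 0.906 to 0.981.

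**Figure D5:**
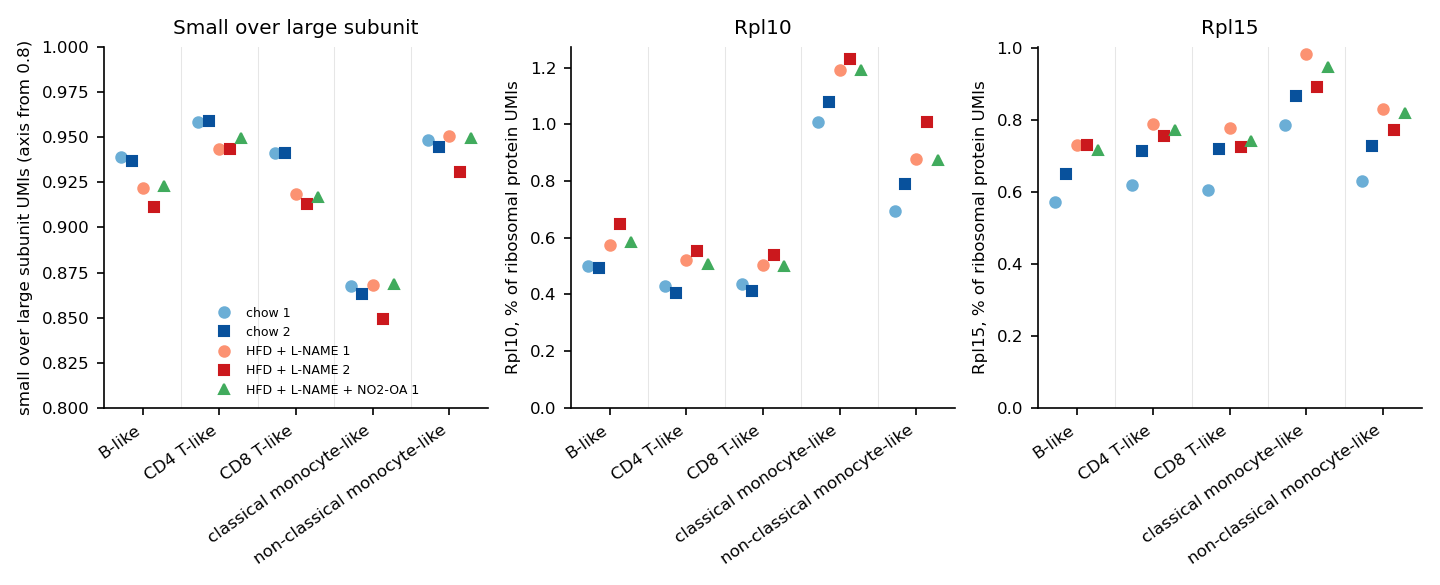
Ratio of small-subunit to large-subunit UMIs (left, axis from 0.8), and part of the ribosomal protein UMIs from Rpl10 (middle) and Rpl15 (right, %), by class, 1 point per library. In B-like and T-like cells both HFD + L-NAME points lie below both chow points on the left, and for Rpl10 and Rpl15 both HFD + L-NAME points lie above both chow points in the 5 classes plotted.

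NO2-OA was compared with the regimen alone on 1 library against 2, with the spread taken from all 5. This comparison shares the HFD + L-NAME libraries with the one above. Again 0 of 82 to 85 members passed with edgeR, and 0 with DESeq2, where edgeR called 0.0146% of all genes in CD4 T-like cells, 0.0293% in platelet-like droplets and 0% in the other classes and over all cells. The unadjusted p was under 0.05 for 1 member in B-like cells and 1 in platelet-like droplets, and for 0 elsewhere. Of all genes tested it was so for 267 of 16777 in B-like cells and 383 of 6825 in platelet-like droplets. The log2 fold change was above 0 for 1 of 84 members in B-like cells (median -0.13), 1 of 85 in CD4 T-like (-0.37), 2 of 85 in CD8 T-like (-0.35), 65 of 85 in classical monocyte-like (0.05), 1 of 84 in non-classical monocyte-like (-0.13) and 65 of 82 in platelet-like droplets (0.29, where the median of all genes was -0.25). Of all genes tested, 7896 of 16777, 6827 of 13675, 6961 of 15223, 5835 of 11640, 5451 of 11120 and 2711 of 6825 were above 0, in the same order of classes. Over all kept cells it was 12 of 85 members (median -0.07), beside 10014 of 20506 genes.

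Rps27rt was the lower member with the smallest p in CD4 T-like, CD8 T-like, both monocyte-like classes and all cells. In CD4 T-like cells it was at 85.2 CPM in chow 1, 115 in chow 2, 119 and 107 under HFD + L-NAME 1 and 2 and 75.6 with NO2-OA, which was the lowest of the 5 (log2 -0.66 ± 0.33 against the regimen, edgeR adjusted p = 1.00). The log2 value was -0.56 in CD8 T-like, -0.54 in non-classical and -0.23 in classical monocyte-like cells and -0.29 over all cells. In platelet-like droplets Rps27rt was instead the higher member with the smallest p (log2 2.12 ± 0.97), on 6 and 10 UMIs in the HFD + L-NAME libraries. Rpl39l in B-like cells had 30 and 29 UMIs under HFD + L-NAME 1 and 2 and 4 with NO2-OA, with 9 in chow 1 and 34 in chow 2 (log2 -2.69 ± 1.02, edgeR adjusted p = 1.00). The higher members with the smallest p were Rps26 in classical monocyte-like cells (log2 0.29), Rpl3l in CD4 T-like (0.40), Rpl7l1 in CD8 T-like (0.07), Rps27l in non-classical monocyte-like (0.07), Rplp2 over all cells (0.08) and Rpl27 in B-like cells (0.0048), each smaller than its standard error. Rps27l had 0 UMIs in the 100 platelet-like droplets of the NO2-OA library.

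Other genes of protein synthesis were read beside the members. Of 24 translation factors, 50 ribosome assembly genes, 31 genes of mTOR and Myc control, 21 of ribosome turnover and 78 mitochondrial ribosomal proteins, 0 of those tested passed edgeR's adjusted threshold in any class or comparison, and at an unadjusted p under 0.05 there were at most 4 per list and class. Over all genes tested, 205 to 593 per class and comparison had such a p. In B-like cells under the regimen the median log2 change was 0.18 for assembly genes, 0.20 for mitochondrial ribosomal proteins and 0.13 for translation factors, beside 0.16 for the members, 0.03 for mTOR and Myc control, 0.04 for turnover and -0.01 for all genes tested. Assembly genes did not stand beside the members in each class. Their median was 0.04 in CD4 T-like and in CD8 T-like cells, where the members were at 0.21 and 0.10. It was -0.10 in classical and -0.01 in non-classical monocyte-like cells, where the members were at 0.05 and 0.15.

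The difference between the chow libraries was not spread evenly over these lists. In B-like cells the median log2 ratio of chow 2 over chow 1 was 0.66 for the members, of which 98.8% were above 0. It was 0.30 for mitochondrial ribosomal proteins, 0.20 for translation factors, -0.02 for assembly genes, -0.18 for turnover genes, -0.27 for mTOR and Myc control and -0.01 for all genes. Fau, a ribosomal protein made as a fusion, was at 2936, 5015, 4059, 3825 and 3787 CPM in the 5 libraries, and Rack1, a scaffold on the small subunit, at 844, 1152, 1145, 1235 and 1081. Tpt1, whose mRNA also begins with a TOP motif, was at 3769, 5343, 5723, 5205 and 5054 CPM, and the elongation factor Eef1a1 at 2476, 3228, 2907, 3217 and 2825 CPM. Chow 1 was the lowest library for all 4, and also for Eef1b2, at 456, 720, 656, 793 and 619 CPM. Other genes of protein synthesis did not follow this. Pabpc1 was highest in chow 1, at 635, 492, 532, 551 and 531 CPM in the 5 libraries. Eef2 was at 492.5, 468.8, 461.7, 493.3 and 468.5 CPM. The assembly genes Ncl (587 and 594 CPM in chow 1 and chow 2) and Npm1 (499 and 517 CPM) differed less between the chow libraries. Eif2ak3, a kinase of the stress response, went the other way, at 793, 424, 695, 531 and 719 CPM, as did Atf4, the transcription factor downstream of it, at 410, 289, 361, 271 and 300 CPM, and Huwe1, a ubiquitin ligase, at 582, 362, 464, 382 and 529 CPM.

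The same lean was seen in other classes: the members' median log2 ratio of chow 2 over chow 1 was 0.68 in CD4 T-like, 0.56 in CD8 T-like, 0.38 in classical and 0.18 in non-classical monocyte-like cells. For assembly genes this median was 0.14, 0.15, 0.02 and 0.13 in the same classes. For all genes tested it was -0.09, -0.05, 0.01 and 0.08. Chow 2 and chow 1 had mitochondrial shares of 3.70% and 4.81% in CD4 T-like cells and 3.97% and 4.17% in B-like cells, and Malat1, a nuclear RNA, at 2.21% and 2.11% of UMIs in CD4 T-like cells. In the same order Malat1 was at 2.06% and 1.72% in B-like cells and 0.793% and 0.810% in classical monocyte-like cells. Median UMIs per cell were 5712 and 5334 in B-like cells of chow 2 and chow 1. They were 6765 and 4980 in CD4 T-like, 9313 and 7236 in CD8 T-like and 12811 and 10933 in classical monocyte-like cells. Non-classical monocyte-like cells had 8662 and 6744. The part of these in the difference was not tested.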

How the data were processed

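The deposited files are 1 matrix of UMI counts per gene and barcode for each library, not normalized, which the authors made with Cell Ranger 7.1.0 per the file headers. The submitters' processing notes name bcl2fastq, Cell Ranger and the mouse build mm39, without further versions. No gene coordinates were used but those of the RefSeq start regions, which are on another build (GRCm38.p6), matched by symbol. The mapping settings and the handling of reads shared by near-identical copies are not given in the sources used here.

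Barcodes with at least 200 genes and under 10% mitochondrial UMIs were kept, and doublets were scored with the scrublet method in scanpy 1.11.5, leaving out the top-scoring 6.79% to 14.4% per library. From 2000 variable genes, 40 principal components and a graph of 20 neighbours were made; leidenalg 0.10.2 (resolution 1) gave the clusters, which were named from marker lists (score of at least 0.5, 3 markers each in at least 10% of cells, no lead of another class among the 10 leading genes). The plan had been to cluster with all genes. This mixed CD4 and CD8 T-like cells in 2 libraries, so clusters formed without the members are the main ones here, a choice made after seeing the data, with the planned ones as the alternative. The naming rule's margins were also set on these data.

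UMIs were summed per class and library. Shares were compared with a two-sided exact permutation test. Single genes were tested in R 4.3.3 by the robust quasi-likelihood test of edgeR 4.0.16, after filterByExpr and TMM scaling, with no term but the group and 1 estimate of the spread from 5 libraries. P-values had Benjamini-Hochberg adjustment over all genes tested in a class and a threshold of 0.05. The lone NO2-OA library is assumed to vary like the others. DESeq2 1.42.0 was an alternative. CPM values are over all UMIs of the class. Tested on simulated counts for the regimen comparison, edgeR recovered 10% of 100 genes changed by 2-fold and 77% of 100 changed by 4-fold in B-like cells (16316 genes), 2% and 63% in CD4 T-like cells (13238 genes), and 13% and 81% in classical monocyte-like cells (11256 genes). The precision of single genes follows from these and from the 5 libraries' depths.

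Members, gene lists and tests were chosen with earlier results of these data known. Named genes are the stalk genes and Rpsa, paralogs with their partners, the 5 highest and 5 lowest members, the member with the smallest p in each direction per class and comparison, the 3 farthest above and below per class in the pool, and the 2 highest genes of each list, the last given in B-like cells. Msrb1, and members counted by pool share across classes, were chosen after their values were seen. Some genes that this rule takes are not reported here.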

Additional observations from a re-analysis of the deposited data

Results flagged for a closer look

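Under the regimen, the share of UMIs from ribosomal protein genes differed from chow in opposite directions in 2 classes without overlap between the groups. In non-classical monocyte-like cells both HFD + L-NAME libraries lay above both chow libraries, by 1.0 percentage points between the means, and in erythroid-like cells both lay below, by -1.38 points (1.72% against 3.10%). In the non-classical class chow 2 (10.19%) and HFD + L-NAME 1 (10.20%) were within counting error of each other, and chow 1 (8.53%) stood apart. The difference between the classes was not tested. The haemoglobin share of erythroid-like UMIs was 78.5% and 76.6% in the chow libraries and 84.6% and 88.6% in the HFD + L-NAME libraries. With mitochondrial, haemoglobin and immunoglobulin genes out of the total, the erythroid-like groups overlapped, at 12.1% and 16.6% in chow and 13.8% and 12.8% under the regimen. The non-classical monocyte-like difference was then 1.08 points without overlap, with chow 2 at 10.42% and HFD + L-NAME 1 at 10.45%. Chow 2 held 30 erythroid-like cells. In the main erythroid-like cluster alone (186 of the 203 cells in chow 1) the groups overlapped, at 1.12% and 1.47% in chow and 1.65% and 1.20% under the regimen. They overlapped too as medians over cells, at 0.392% and 0.507% in chow and 0.595% and 0.409% under the regimen.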

How the results depend on the processing

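Of the 224 counts of single members under alternative settings, 220 stayed within 1.5 times the reported count of 0. With 1 library left out, the count ran from 0 to 12 in CD4 T-like cells under the regimen (12 without chow 2) and from 0 to 3 in platelet-like droplets (3 without chow 1). The fit with the replicate number as a block called 8 members in platelet-like droplets under the regimen, Rpl12 among them (log2 -1.1), and 1 in the NO2-OA comparison, and 0 in the other classes. How many of all genes that fit called is not given here, so nothing is read about the members in particular. With 2 pairs the labels give no more than a shared number: deviations of same-numbered libraries correlated at 0.09 to 0.43 over all genes and at 0.16 to 0.81 over the members. With 1 library left out, the members' median log2 change under the regimen ran from -0.24 to 0.34 over all cells, -0.13 to 0.56 in B-like, -0.11 to 0.69 in CD4 T-like, -0.18 to 0.47 in CD8 T-like and -0.12 to 0.25 in classical monocyte-like cells, the upper ends without chow 2. The platelet-like share difference under the regimen (-0.909 points) was -0.00279 as a median over cells, -1.84 with a mitochondrial share below 5%, -1.86 with doublets kept and -0.109 with clusters formed with the members, and for NO2-OA it was 1.8 with doublets kept. The CD4 T-like subunit ratio differed by -0.0164 with a mitochondrial share below 5%, and the Rpl36al difference in non-classical monocyte-like cells was 3.52 points with doublets kept and 0.98 with clusters formed with the members. For these the cause was not tested.

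Named members near 0 changed sign in 19 cases (log2). With 1 library left out, Rps29 under the regimen ran from -0.68 to 0.75 in B-like and from -0.74 to 0.68 in CD8 T-like cells, Rpl38 from -0.37 to 0.36 in non-classical monocyte-like cells (0.13 without HFD + L-NAME 1) and Rpl3l from -6.4 to 0.9 in CD4 T-like cells (0.47 without HFD + L-NAME 2), the extreme being a fit to a library with 0 UMIs and no bound. For NO2-OA, Rpl27 ran from -0.11 to 0.13 in B-like (-0.012 without chow 2), Rpl3l from -0.24 to 6.6 in CD4 T-like, Rpl7l1 from -0.038 to 0.2 in CD8 T-like, Rplp2 from -0.075 to 0.21 over all cells and Rps27l from -0.028 to 0.18 in non-classical monocyte-like cells. With the replicate block, Rps29 in B-like cells was at 0.018 and, for NO2-OA, Rpl3l at -0.024 and Rpl7l1 at -0.013. For NO2-OA, Rpl27 was at -0.0023 without the filter on low counts and -0.012 with clusters formed with the members, Rpl7l1 at -0.045 with those clusters, and Rps27l at -0.079 with doublets kept.

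With 2 libraries against 2, an exact test cannot go below 0.333, and in the simulated counts most 2-fold changes in single genes were missed.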

Other observations

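Within the B-like and CD8 T-like classes the ribosomal protein share also differed between clusters. CD8 T-like cells fell into a cluster with Cd8b1 among its leading genes, with 19.1%, 29.6%, 26.1%, 24.4% and 21.8% in chow 1, chow 2, HFD + L-NAME 1, HFD + L-NAME 2 and NO2-OA, and one led by Ccl5, a chemokine gene of effector and memory cells, with 17.8%, 27.5%, 24.4%, 23.7% and 19.8%, lower in 5 of 5 libraries. Among B-like clusters, the one led by Akap12, with Vpreb3, a gene of immature B cells, among its leading genes, had 9.31%, 15.0%, 13.1%, 12.3% and 12.6%, and the one led by Sox5 had 13.2%, 24.5%, 19.3%, 21.7% and 17.2%. These clusters differ in depth as well: the median was 5462.5 to 7482 UMIs per cell in the first and 8265 to 17683 in the second. Clusters were formed on other genes, and the values are per library with no test.

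Rps29 was among the members most unlike between the chow libraries within the pool, at 1.90% of ribosomal protein UMIs in B-like cells of chow 1 and 3.05% in chow 2, with 1.95%, 2.36% and 2.07% in HFD + L-NAME 1, HFD + L-NAME 2 and NO2-OA. Rps27 stood at 2.38%, 3.45%, 2.53%, 2.70% and 2.50% in the same cells. For both genes the libraries numbered 2 were above those numbered 1, in B-like cells.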
